A study of Mus musculus with 10 samples.

Results

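Neurofilament and neuronal marker genes were followed in isolated islets of Langerhans, the endocrine tissue of the pancreas, from 2 mouse strains. The group holds 10 genes of the 19938 measured: the intermediate filament genes Nefm, Nefl, Nefh, Ina and Prph, the growth cone genes Gap43 and Stmn2, the neurotrophin receptor gene Ngfr, the ubiquitin hydrolase gene Uchl1 and the tubulin gene Tubb3. Each gene was represented by its brightest probe set among those annotated to a single symbol. The group was put together because Nefm and Ngfr were lower in islets of the NZO strain in these same arrays, so the strain differences of all 10 are given as a description, with no p-value. All 10 had a probe set, 9 of them a single one, and no filter on dim genes was used. One strain was NZO/Hl, an obese and diabetes-prone mouse, and the other C3H (C3HeB/FeJ). The study used such arrays in a search, based on backcrosses, for genes that affect insulin secretion. There were 5 arrays of each strain, all from males 6 weeks old that ate a high-fat diet (45% of the energy as fat) from weaning at day 21. Islets freed with collagenase were left overnight in medium with 10 mM glucose. The titles of NZO replicates 4 and 5 are numbered in another form than the rest. The labels do not say what these numbers stand for or whether arrays were pools.

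Neurofilaments are the intermediate filaments of axons. They are built from light (Nefl), medium (Nefm) and heavy (Nefh) chains together with alpha-internexin (Ina) or peripherin (Prph), and their abundance goes with axon calibre. Islets receive sympathetic, parasympathetic and sensory fibres and are wrapped by Schwann cells, and endocrine cells themselves share a large set of genes with neurons, which the repressor Rest keeps silent in most other tissues. RNA of a bulk islet sample can therefore come from endocrine cells, glia, attached nerve tissue or other cells, and fewer cells of a type cannot be told apart from less RNA per cell.

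The islet hormones were among the brightest genes of every array, with the insulin gene Ins2 at 12.33 in C3H and 12.45 in NZO and glucagon (Gcg) at 13.25 and 13.21 on the log2 scale. Samples differed in the amount of digestive enzyme RNA. An acinar score, the mean log2 value of 24 acinar cell genes, ran from 8.07 to 8.91 in C3H, 9.78 to 10.34 in NZO replicates 1 to 3 and 11.58 to 11.71 in NZO replicates 4 and 5. The score did not overlap between the strains, so a fit with it as a covariate beside strain cannot fully tell the 2 apart. The SE of such a fit is wider (for Nefm 0.34 in place of 0.16), and its values are given as a description. C3H replicate 4 was unlike its group: with genes ranked by brightness and cut into 3 equal classes, 80.8% of the brightest class were lowest on it among C3H, and 75% of the dimmest class were highest. Among the 10 genes it was the lowest C3H array for 4 (Nefm, Ina, Ngfr and Uchl1) and the highest for 2 (Nefl and Tubb3). Values without C3H replicate 4, or without NZO replicates 4 and 5, stand beside the results that they move.

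**Figure D1:**
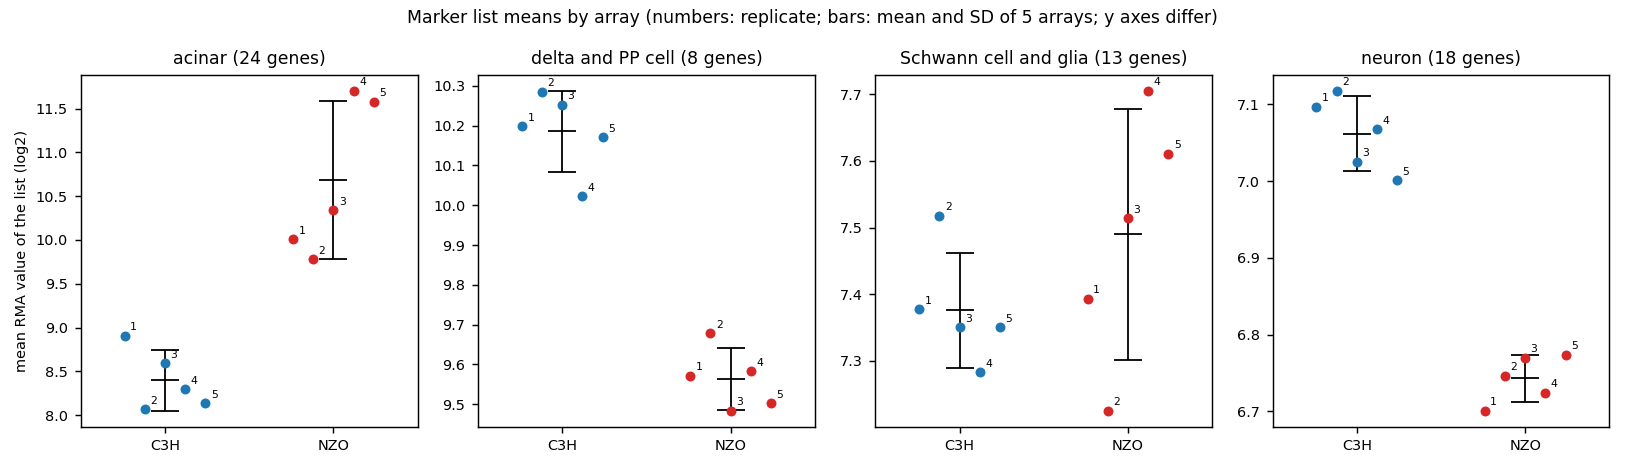
Mean RMA values on the log2 scale of 4 marker lists on each array, with the replicate number beside each point and bars for the mean and SD of 5 arrays per strain. The acinar score was higher on all NZO arrays, the delta and PP cell list (9.48 to 9.68 against 10.02 to 10.29) and the neuron list (6.70 to 6.77 against 7.0 to 7.12) were lower on all of them, and the Schwann cell list overlapped between the strains; in the neuron list 13 of 18 genes did not pass and the median difference was -0.03, with Tac1, Th and Vip far lower.

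RefSeq start-site windows of the assembly GRCm38.p6 were held for 5 of the 10 genes (Ina, Prph, Ngfr, Uchl1 and Tubb3), and not for Nefm, Nefl, Nefh, Gap43 or Stmn2. The 250 bases before the start are shown 5′ to 3′ for 3 of them, chosen because their strain values differed in pattern: Ngfr was lower in NZO, Uchl1 higher, and Ina overlapped. The sequences are those of the reference assembly and not of either strain. Capitals mark matches on either strand to GGGCGG (the GC box bound by Sp1), TATAAA (the TATA box), CAGCACC or GGACAG (the left and right parts of RE1, the element bound by Rest) and TGACGTCA (the cyclic AMP response element). The windows are chr11:95587699-95587948 on the minus strand for Ngfr, chr5:66675871-66676120 on the plus strand for Uchl1 and chr19:47014431-47014680 on the plus strand for Ina.
Ngfr: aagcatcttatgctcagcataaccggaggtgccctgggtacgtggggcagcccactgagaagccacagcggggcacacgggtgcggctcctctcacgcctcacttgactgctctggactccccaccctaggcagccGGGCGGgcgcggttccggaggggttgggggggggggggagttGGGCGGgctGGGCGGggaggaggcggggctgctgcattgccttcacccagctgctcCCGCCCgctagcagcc
Uchl1: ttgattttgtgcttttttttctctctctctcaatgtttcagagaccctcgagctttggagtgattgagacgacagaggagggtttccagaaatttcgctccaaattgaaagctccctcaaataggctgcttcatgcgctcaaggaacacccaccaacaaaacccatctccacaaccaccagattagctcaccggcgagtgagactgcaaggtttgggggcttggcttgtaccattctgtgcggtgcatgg
Ina: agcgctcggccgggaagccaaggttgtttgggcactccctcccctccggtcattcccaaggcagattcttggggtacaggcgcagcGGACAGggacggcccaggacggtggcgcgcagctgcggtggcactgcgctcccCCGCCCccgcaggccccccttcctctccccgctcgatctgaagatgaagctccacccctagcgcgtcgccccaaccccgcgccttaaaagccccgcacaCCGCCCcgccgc
The Ngfr window held 4 GC boxes and no other match, and the Ina window 2 GC boxes and 1 right part of RE1. The Uchl1 window held no match, and its GC content was 48.8% against 70.4% for Ngfr and 70.8% for Ina. A GC box was present in 4 of the 5 windows and in 32.7% of 32851 windows of the same length over all genes. Tubb3 also held 1 left part of RE1, a motif in 5.73% of all windows, and Prph the TATA box, in 12.4% of them, while the right part of RE1 stood in 18.7%. The cyclic AMP response element was in none of the 5 windows and in 1.55% of all.

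Of the 3 neurofilament chains, the medium chain gene Nefm was far lower in NZO islets, the light chain gene Nefl slightly lower, and the heavy chain gene Nefh overlapped between the strains. The log2 values of Nefm were 8.89, 8.81, 8.84, 7.94 and 8.71 in C3H replicates 1 to 5 and 6.53, 6.54, 6.15, 6.64 and 6.34 in NZO replicates 1 to 5. Every NZO array lay below every C3H array, with 1.30 log2 units between the lowest C3H and the highest NZO value. The means were 8.64 ± 0.40 (SD, n = 5) for C3H and 6.44 ± 0.19 (SD, n = 5) for NZO, with NZO minus C3H at -2.19 (SE 0.16), or 4.58-fold. The NZO values stood near the 25th percentile of all genes on the NZO arrays (6.17 to 6.29), where RMA compresses differences and no detection call exists, so the fold can be too small. C3H replicate 4 stood 0.87 below the mean of the other 4 C3H arrays, whose values were 8.81 ± 0.08 (SD, n = 4), while the median shift of that array was -0.06 in the middle class of brightness, where Nefm lies. Without this array the difference was -2.37 (SE 0.10), without NZO replicates 4 and 5 it was -2.23 (SE 0.19), and with the acinar score as a covariate beside strain it was -2.34 (SE 0.34). Within NZO, the 2 arrays richest in acinar RNA were 0.08 higher in Nefm than the other 3, and their acinar score was 1.60 higher. Whether acinar RNA had a part in the values of Nefm or of the other genes of the group was not tested. Nefm was read from a single probe set. The part of sequence differences between the strains under the probes was not tested either, for Nefm or the other genes.

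Nefl encodes the light chain, which the other chains need to form filaments in axons. Its log2 values were 6.61, 6.69, 6.63, 6.73 and 6.59 in C3H replicates 1 to 5 and 6.26, 6.50, 6.34, 6.41 and 6.13 in NZO replicates 1 to 5. The strains did not overlap, but the gap was 0.09. The means were 6.65 ± 0.06 (SD, n = 5) for C3H and 6.33 ± 0.14 (SD, n = 5) for NZO, with NZO minus C3H at -0.32 (SE 0.08). Nefl was brighter than the 25th percentile of all genes on each array except NZO replicate 5, and dimmer than the median gene, in a range where RMA compresses differences. With the acinar score as a covariate the difference was -0.17 (SE 0.17). Nefl and Nefm are the nearest measured neighbours on chromosome 14, with 30.4 kb between Nefl (68083863 to 68089095) and Nefm (68119545 to 68125004, GRCm38.p6). The measured genes outside the pair were Dock5 (0.19, SE 0.10) before Nefl and Adam7 (0.11, SE 0.10) after Nefm, and neither passed limma's test (adjusted p = 0.303 and 0.654).

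Nefh encodes the heavy chain, whose long phosphorylated tail spaces filaments in large axons. Its log2 values were 8.04, 8.25, 8.10, 8.25 and 8.29 in C3H replicates 1 to 5 and 8.33, 8.04, 8.18, 8.09 and 7.96 in NZO replicates 1 to 5. The strains overlapped over most of their range. The means were 8.19 ± 0.11 (SD, n = 5) for C3H and 8.12 ± 0.14 (SD, n = 5) for NZO, with NZO minus C3H at -0.07 (SE 0.09), and this small difference changed sign with the acinar score as a covariate (0.18, SE 0.17).

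Ina and Prph encode the filament proteins that join the neurofilament chains, Ina in central and developing neurons and Prph in peripheral ones. The log2 values of Ina were 10.15, 10.29, 10.14, 9.85 and 9.93 in C3H replicates 1 to 5 and 10.41, 9.98, 10.15, 10.22 and 10.08 in NZO replicates 1 to 5, and the strains overlapped. The means were 10.07 ± 0.18 (SD, n = 5) for C3H and 10.17 ± 0.16 (SD, n = 5) for NZO, with NZO minus C3H at 0.10 (SE 0.10). Its other probe set gave 7.88 ± 0.28 and 7.82 ± 0.23, a difference of -0.06, so both probe sets differed by less than the SD between arrays. For Prph the log2 values were 7.47, 7.59, 7.16, 7.19 and 7.08 in C3H replicates 1 to 5 and 6.88, 6.96, 7.13, 6.96 and 6.84 in NZO replicates 1 to 5. The highest NZO array, replicate 3, lay above the lowest C3H array, replicate 5, by 0.05, and C3H replicates 1 and 2 were higher than all others. The means were 7.30 ± 0.22 (SD, n = 5) for C3H and 6.96 ± 0.11 (SD, n = 5) for NZO, with NZO minus C3H at -0.34 (SE 0.10).

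**Figure D2:**
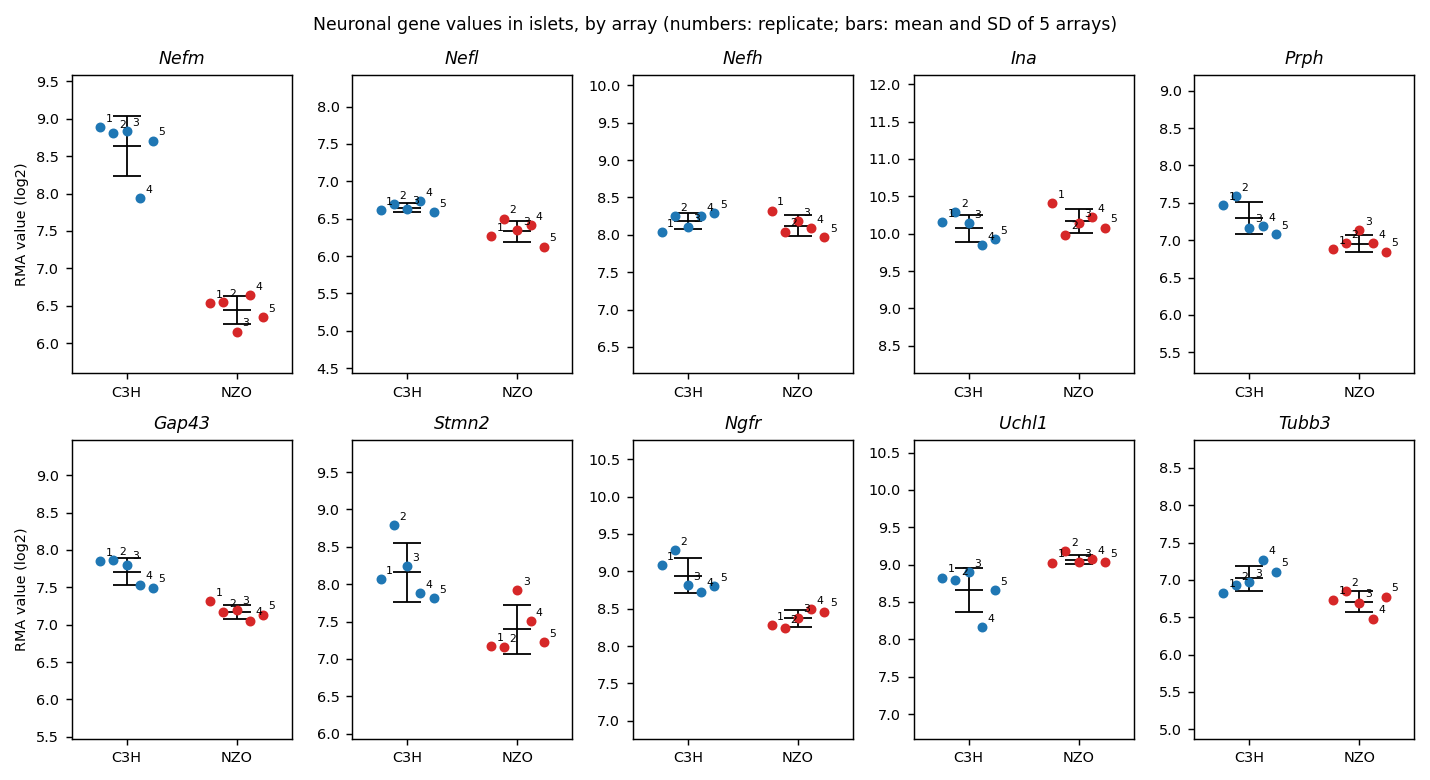
RMA values on the log2 scale of the 10 genes on each array, with replicate numbers, and bars for the mean and SD of 5 arrays per strain; every panel spans the same number of log2 units around its own centre. Nefm (8.64 against 6.44) shows the widest separation, Uchl1 is higher on all NZO arrays, and Nefh and Ina overlap.

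The growth cone genes were lower in NZO. Gap43 encodes a membrane phosphoprotein of growing axon tips, and its log2 values were 7.85, 7.87, 7.80, 7.54 and 7.49 in C3H replicates 1 to 5 and 7.32, 7.16, 7.20, 7.05 and 7.13 in NZO replicates 1 to 5. All NZO arrays were below all C3H arrays, by a gap of 0.18. The means were 7.71 ± 0.18 (SD, n = 5) for C3H and 7.17 ± 0.10 (SD, n = 5) for NZO, with NZO minus C3H at -0.54 (SE 0.09), or 1.45-fold. Stmn2 encodes a stathmin that binds tubulin dimers in growing neurites. Its log2 values were 8.07, 8.79, 8.24, 7.88 and 7.81 in C3H replicates 1 to 5 and 7.17, 7.16, 7.92, 7.50 and 7.23 in NZO replicates 1 to 5. NZO replicate 3 reached the level of the lower C3H arrays, so the strains overlapped, and C3H replicate 2 was highest. The means were 8.16 ± 0.39 (SD, n = 5) for C3H and 7.39 ± 0.32 (SD, n = 5) for NZO, with NZO minus C3H at -0.76 (SE 0.18), or 1.70-fold, and its SD was above that of 99.1% of genes in C3H and of 94.9% in NZO. With the acinar score as a covariate the differences were -0.45 (SE 0.20) for Gap43 and -0.78 (SE 0.39) for Stmn2.

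Ngfr encodes p75, a receptor of the tumour necrosis factor family that binds all neurotrophins and is abundant in Schwann cells and sympathetic neurons. Its log2 values were 9.08, 9.28, 8.82, 8.73 and 8.80 in C3H replicates 1 to 5 and 8.28, 8.24, 8.38, 8.49 and 8.46 in NZO replicates 1 to 5. Every NZO array was below every C3H array, with a gap of 0.23, and C3H replicates 1 and 2 were highest. The means were 8.94 ± 0.23 (SD, n = 5) for C3H and 8.37 ± 0.11 (SD, n = 5) for NZO, with NZO minus C3H at -0.57 (SE 0.11), or 1.49-fold. Unlike Nefl and Tubb3, Ngfr moved away from 0 with the acinar score as a covariate (-0.81, SE 0.22), and within NZO replicates 4 and 5 were 0.18 higher than the other 3. Without NZO replicates 4 and 5 the difference was -0.64 (SE 0.12).

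Uchl1, known to neuroanatomists as PGP 9.5 and used to stain nerve fibres and endocrine cells, ran the other way. Its log2 values were 8.83, 8.79, 8.90, 8.16 and 8.65 in C3H replicates 1 to 5 and 9.02, 9.18, 9.03, 9.08 and 9.03 in NZO replicates 1 to 5. Every NZO array was above every C3H array, with a gap of 0.13. The NZO arrays were close together, with an SD above that of 7.5% of genes. The means were 8.67 ± 0.29 (SD, n = 5) for C3H and 9.07 ± 0.06 (SD, n = 5) for NZO, with NZO minus C3H at 0.40 (SE 0.12), or 1.32-fold. C3H replicate 4 was 0.63 below the mean of the other C3H arrays, against a median shift of -0.21 in the brightest class of genes, and without it the difference was 0.28 (SE 0.07). Tubb3 encodes the beta tubulin that marks neurons in histology. Its log2 values were 6.83, 6.93, 6.97, 7.27 and 7.11 in C3H replicates 1 to 5 and 6.73, 6.84, 6.70, 6.48 and 6.78 in NZO replicates 1 to 5. NZO replicate 2 lay just above C3H replicate 1, so the strains overlapped, and C3H replicate 4 was highest. The means were 7.02 ± 0.17 (SD, n = 5) for C3H and 6.71 ± 0.14 (SD, n = 5) for NZO, with NZO minus C3H at -0.31 (SE 0.10), and the difference was -0.046 (SE 0.19) with the acinar score as a covariate.

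**Figure D3:**
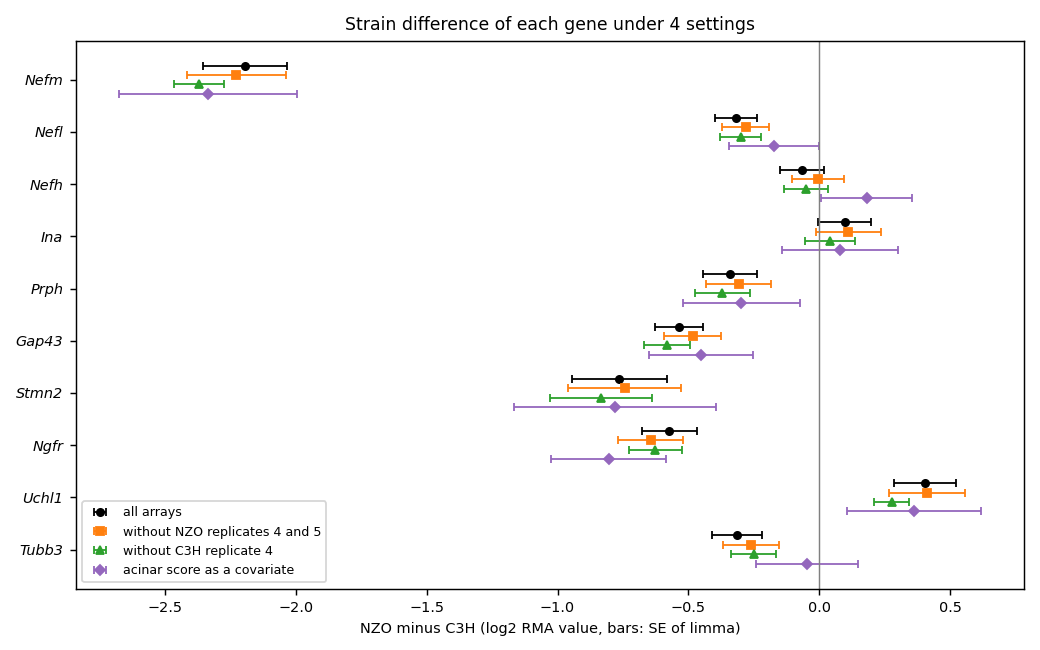
NZO minus C3H differences of the 10 genes on the log2 scale with the SE of limma as bars, for all arrays, without NZO replicates 4 and 5, without C3H replicate 4 and with the acinar score as a covariate. Nefm stays between -2.37 and -2.19 under these 4 settings, while Nefl, Nefh and Tubb3 move with the covariate, Nefh across 0.

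Of the 10 genes, 8 were below 0 in NZO minus C3H, as were 55.2% of all genes, and their median difference was -0.33, where the median of all 19938 genes was -0.02. At an adjusted p below 0.05 in limma, 6 were lower, against a background of 4.61% of all genes, and 1, Uchl1, was higher, against 5.47% (10.1% in either direction). Non-overlapping values were lower in 4 (Nefm, Nefl, Gap43 and Ngfr), against 4.18% of all genes, and higher in 1, against 4.96% (9.14% in either direction). Because the group was chosen on this contrast, nothing is read from these shares. The same holds for every call of the 10 genes in the fits that follow, which only describe how values and calls moved. The calls also moved with single arrays. With 1 array left out at a time, Nefl did not pass without C3H replicate 2 or NZO replicate 5 (-0.27 to -0.36 over the 10 fits). Prph passed in 3 of the 10 fits (without C3H replicate 4, C3H replicate 5 or NZO replicate 3; -0.40 to -0.27), Uchl1 in 2 (without C3H replicate 3 or 4; 0.28 to 0.46), and Tubb3, which did not pass with all arrays, in 2 (without C3H replicate 1 or NZO replicate 2; -0.36 to -0.25). Without NZO replicates 4 and 5, 3 of the genes passed, all lower (background 2.47% lower, 3.07% higher and 5.54% in either direction), and with the acinar score as a covariate 1, Nefm (background 0.461% lower, 0.567% higher and 1.03% in either direction). Without C3H replicate 4, 6 passed as lower (background 7.89%) and 1 as higher (5.65%, or 13.5% in either direction). With each array centred on its median, 6 passed as lower (3.8%) and none as higher (4.9%, or 8.7% in either direction), Tubb3 having joined and Prph and Uchl1 having dropped out.

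Genes next to the 10 on their chromosomes were read as well. Of 18 measured genes next to a member and outside the group, 2 were lower and 1 higher in NZO in limma, against 4.61% and 5.47% of all genes. They were Nt5c2, a nucleotidase gene beside Ina (-0.40, SE 0.10, limma adjusted p = 0.0160), Tuba1a, an alpha tubulin gene beside Prph (-0.27, SE 0.08, limma adjusted p = 0.0350), and Limch1 beside Uchl1 (0.32, SE 0.10, limma adjusted p = 0.0484). Nothing is read from so small a count. The neighbours of Ngfr on chromosome 11, Nxph3 (0.08, SE 0.11) and B130006D01Rik (-0.08, SE 0.09), did not pass. Adam7, Il7 and 4932412D23Rik, 372.3 kb or more from their member, had strain means of 4.87 to 5.23. Those lie below the 25th percentile of all genes (6.17 to 6.45), so not passing says little there. Leaving out arrays was not run for these neighbours.

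The genes with the profile nearest to Nefm over the 10 arrays were found by the root mean square distance between profiles, each centred on its own mean. They were Fggy, a carbohydrate kinase gene, at a distance of 0.20 log2 units, Ndst4, an enzyme of heparan sulfate synthesis (0.29), the zinc finger gene Zfp979 (0.30), Pianp, a neural membrane protein gene (0.31), the RING ligase subunit gene Rnf7 (0.32) and the calbindin gene Calb1 (0.33). All 6 are lower in NZO by construction, with differences of -2.26 to -1.64, and the 4 other probe sets of Fggy differed by -2.43 to -0.38. Of the 6, 5 were lowest among C3H on replicate 4, as Nefm was, and Pianp (8.78) lay within the range of the others. The distance used all 10 arrays, so the choice itself favours genes that are low on this array. It was the lowest C3H array for 44.2% of the middle class of brightness, where Nefm lies. Ndst4 was 6.68 on C3H replicate 4 against 7.21 to 7.42 on the other C3H arrays, and Calb1 8.28 against 9.02 to 9.63. The nearest profiles to Ngfr were those of Klhl13 (0.10), the synaptic vesicle gene Sv2c (0.11), the homeobox gene Pou3f4 (0.11), Trappc5 (0.12), Ugdh (0.12) and Amotl1 (0.13), with differences of -0.64 to -0.40.

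**Figure D4:**
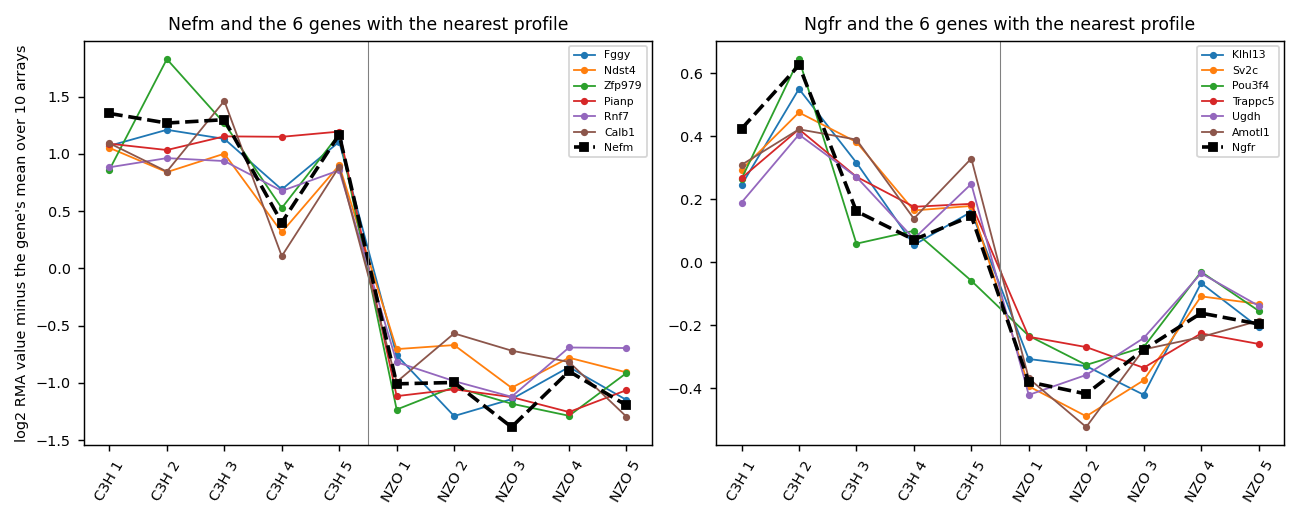
Log2 RMA values minus each gene's own mean on the 10 arrays for Nefm and Ngfr (dashed) and the 6 genes with the nearest profiles of each; lines only join the points of a gene. Nefm and 5 of its 6 nearest genes are lowest among C3H on replicate 4, where Pianp is not. The distance that chose them used all 10 arrays, this one included.

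The other genes of these systems were read from 8 lists, chosen with earlier results of these data known. Over their distinct measured genes, 17 were lower and 11 higher in NZO at a limma adjusted p below 0.05, or 20.1% against 10.1% of all genes, and the median difference was -0.04. Without NZO replicates 4 and 5, 19 passed, where 5.54% of all genes did. Under the acinar covariate 4 did (Ank2, Sorcs2, Th and Tac1), against 1.03% of all genes. Without C3H replicate 1, 18 passed, where 1441 of all 19938 genes did. The counts of single lists with 1 array left out, given below, stand against 1441 to 2701 of all genes, depending on the array.

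The genes of autonomic and sensory neurons that passed were transmitter and peptide genes, all lower in NZO. Of 18 measured, 5 were lower and none higher, 27.8% against 10.1% of all genes, with a median of -0.03. Th, the rate-limiting enzyme of catecholamine synthesis, was 10.56, 10.27, 10.32, 10.52 and 10.80 in C3H replicates 1 to 5 and 9.03, 8.87, 8.87, 8.69 and 8.98 in NZO replicates 1 to 5. The strains did not overlap, at 10.50 ± 0.21 (SD, n = 5) for C3H and 8.89 ± 0.13 (SD, n = 5) for NZO, with NZO minus C3H at -1.61 (SE 0.10), limma adjusted p = 2.58e-07. The tachykinin gene Tac1 was 8.69, 9.29, 9.03, 7.69 and 8.81 in C3H replicates 1 to 5 and 6.99, 6.00, 6.67, 7.10 and 6.61 in NZO replicates 1 to 5. No NZO array reached the C3H range, in which replicate 4 was lowest, and the difference was -2.03 (SE 0.26, limma adjusted p = 1.49e-04). The neuropeptide gene Vip was 8.25 ± 0.62 (SD, n = 5) for C3H and 6.78 ± 0.39 (SD, n = 5) for NZO, with NZO minus C3H at -1.46 (SE 0.25), limma adjusted p = 0.00165. The choline transporter gene Slc5a7 differed by -0.28 (SE 0.07, limma adjusted p = 0.0295) and the nitric oxide synthase gene Nos1, named after its values were seen to complete the count, by -0.27 (SE 0.08, 0.0350). Leaving out C3H replicate 1, 2, 3 or 5 or NZO replicate 3 brought the count to 3, and the call of Slc5a7 also ended without NZO replicate 4 (adjusted p in limma up to 0.0867) and that of Nos1 without NZO replicate 1 (up to 0.0930). With the acinar score as a covariate, Th (-1.49, SE 0.22) and Tac1 (-2.47, SE 0.53) were past the threshold. The count was 4 without NZO replicates 4 and 5, the call of Slc5a7 having ended (-0.26, limma adjusted p = 0.106), and without C3H replicate 4 Tac1 differed by -2.28 and Vip by -1.63. Dbh, Chat and Phox2a, other genes of autonomic neurons, were dim and did not pass. Dbh, the enzyme that makes noradrenaline, was 5.40 to 5.79 on all arrays, and Chat, which makes acetylcholine, 5.57 to 6.07. The neuronal transcription factor gene Phox2a was 6.06 to 6.67, where the 25th percentile of all genes was 6.17 to 6.45. Brighter genes of the list that did not pass included Ret (10.10 to 10.62), Hand2 (7.14 to 7.43) and Slc18a3 (6.80 to 7.11). Whether attached nerve cells had a part in the lower values of Nefm, Gap43 or Stmn2 was not tested.

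Of 13 measured Schwann cell and glia genes, 2 were higher in NZO and none lower, 15.4% against 10.1% of all genes. Over all genes 4.61% passed as lower, so none among 13 is close to that share. The higher genes were Cnp (0.42, SE 0.08, limma adjusted p = 0.00302) and Mbp (0.27, SE 0.08, 0.0352), both known from myelin, and the list median was 0.02. The Schwann cell transcription factor gene Sox10 was 7.07 to 7.55 on all arrays (difference 0.02, SE 0.09), and the adhesion gene Cdh19, 5.40 on C3H replicate 4 and 6.43 to 7.22 on the other C3H arrays, differed by -0.35 (SE 0.27). Mal had the largest difference (0.67, SE 0.23) and did not pass. The mean of the list was 7.28 to 7.52 in C3H and 7.23 to 7.71 in NZO, highest on NZO replicates 4 and 5, so the strains overlapped. Whether Schwann cells had a part in the lower values of Ngfr was not tested. Mbp lost its call in 7 of the 10 fits with 1 array left out, and kept it without C3H replicate 3, C3H replicate 4 or NZO replicate 2 (adjusted p in limma up to 0.100). The count was 1 without C3H replicate 1, 2 or 5, NZO replicate 4 or NZO replicate 5, or both of the latter, and 4 without NZO replicate 2.

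Of 15 measured genes of neurotrophins and their receptors, 3 were lower in NZO and none higher, 20% against 10.1% of all genes. The other 12 did not pass, and the median was -0.06. Sort1, which encodes sortilin, the partner of p75 in binding neurotrophin precursors, was 10.84 ± 0.08 (SD, n = 5) for C3H and 10.42 ± 0.16 (SD, n = 5) for NZO, with NZO minus C3H at -0.41 (SE 0.09), limma adjusted p = 0.0064. Its relative Sorcs2 differed by -0.34 (SE 0.09, limma adjusted p = 0.0245) and Ntrk2, the receptor of brain-derived neurotrophic factor, by -0.31 (SE 0.08, 0.0275). The ligand gene Bdnf was 6.37 to 6.83 on all arrays (0.05, SE 0.09). Sorl1 had the highest difference (0.11, SE 0.11). The count fell to 1 without C3H replicate 1, 2 or 3. The call of Sorcs2 ended on leaving out C3H replicate 1, 2 or 3 or NZO replicate 1 or 3 (adjusted p in limma up to 0.0689) and that of Ntrk2 in 6 fits, those lacking C3H replicate 1, 2, 3 or 5 or either of NZO replicates 4 and 5 (up to 0.0812). Without NZO replicates 4 and 5, 1 gene passed, Sorcs2 (-0.46), while Sort1 was -0.31 (limma adjusted p = 0.0672). Under the acinar covariate Sorcs2 was -0.72 (SE 0.16), past the threshold.

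Tubulin genes other than Tubb3 ran in both directions. Of 12 measured beta tubulin, stathmin and ubiquitin hydrolase genes, 3 were lower and 1 higher, 33.3% against 10.1% of all genes. The median was -0.05. Tubb4a, a tubulin of brain, was 9.35, 9.80, 9.68, 9.41 and 9.39 in C3H replicates 1 to 5 and 8.68, 8.00, 8.06, 8.33 and 8.07 in NZO replicates 1 to 5. All NZO arrays were below all C3H arrays, at a difference of -1.30 (SE 0.13, limma adjusted p = 1.77e-05). Tubb2b differed by -0.76 (SE 0.09, limma adjusted p = 1.21e-04) and Tubb2a by -0.60 (SE 0.09, 0.000697), both tubulins of neurons. Tubb1, the tubulin of platelets, was higher (0.47, SE 0.09, limma adjusted p = 0.00309). Tubulin genes are close copies, so which copy a probe set measured is uncertain. All 4 passed without NZO replicates 4 and 5, with Tubb4a at -1.28, Tubb2b at -0.80, Tubb2a at -0.49 and Tubb1 at 0.47. Under the acinar covariate none passed; Tubb4a was -1.19 (SE 0.28), Tubb2b -0.75 (SE 0.21) and Tubb2a -0.21 (SE 0.17).

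Genes of the axonal cytoskeleton and transport ran in both directions. Of 29 measured, 4 were lower and 3 higher, 24.1% against 10.1% of all genes, with a median of -0.05. Ank2, which encodes an ankyrin that ties membrane proteins to spectrin, was 7.72, 7.83, 7.88, 7.55 and 7.91 in C3H replicates 1 to 5 and 9.50, 9.45, 9.69, 9.41 and 9.59 in NZO replicates 1 to 5. The strains did not overlap, with a difference of 1.75 (SE 0.09, limma adjusted p = 1.96e-08, 1.79 with the acinar score as a covariate). Marcksl1 was also higher (0.57, SE 0.13, limma adjusted p = 0.0138; 0.33 without NZO replicates 4 and 5). The lower genes were Crmp1, a mediator of axon guidance signals (-0.64, SE 0.12, limma adjusted p = 0.00222), the kinesin gene Kif5a, whose motor carries neurofilaments (-0.36, SE 0.08, 0.00958), and, named after their values were seen to complete the counts, Dclk1 (-0.61, SE 0.15) and Dpysl2 (-0.23, SE 0.07). Mapt, the gene of the axonal protein tau, named on the same basis, was also higher (0.29, SE 0.09). The call of Dclk1 ended without C3H replicate 3 (limma adjusted p = 0.0542), and those of Dpysl2 (up to 0.122) and Mapt (up to 0.104) in 8 of the 10 fits with 1 array left out, that is all except those without C3H replicate 4 or NZO replicate 2 for Dpysl2 and C3H replicate 4 or NZO replicate 5 for Mapt. Without C3H replicate 3, 2 were lower and 2 higher. Without NZO replicates 4 and 5, 2 were lower and 3 higher, the calls of Kif5a (-0.30) and Dpysl2 (-0.20) having ended.

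Genes that neurons and endocrine cells share passed at a rate near that of all genes. Of 29 measured, 2 were lower and none higher, 6.90% against 10.1% of all genes, with a median of -0.14. They were Gng3, a G protein subunit gene (-0.43, SE 0.08, limma adjusted p = 0.0033), and the splicing factor gene Nova1 (-0.41, SE 0.12, 0.0480), whose other probe set differed by -0.24. Gng3 was dim, at 5.84 to 6.14 in C3H and 5.44 to 5.71 in NZO. On every array it lay below the 25th percentile of all genes (6.17 to 6.45), which limits what its call can say. The enolase gene Eno2 differed by -0.28 (SE 0.09), the exocytosis gene Snap25 by -0.37 (SE 0.12) and the synaptophysin gene Syp by -0.20 (SE 0.08), none past the threshold, and Scn3a had the highest difference (0.28, SE 0.19). Nova1 passed in 2 of the 10 fits with 1 array left out, those without C3H replicate 4 or NZO replicate 1 (adjusted p in limma up to 0.120). The count was 1 with any of C3H replicates 1 to 3 or NZO replicates 3 to 5 left out, 1 without both NZO replicates 4 and 5, 5 without NZO replicate 1 and 3 without C3H replicate 4, all lower, and 3 lower with 1 higher without NZO replicate 2.

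Rest, the repressor of neuronal genes, and its partner Ehmt2 were the 2 genes of 10 in their list that passed, both higher in NZO. That is 20% against 10.1% of all genes, and the list median was -0.04. Rest was 7.13, 7.52, 7.36, 7.34 and 7.22 in C3H replicates 1 to 5 and 7.73, 7.29, 7.73, 8.40 and 8.16 in NZO replicates 1 to 5. Only NZO replicate 2 lay within the C3H range, and replicates 4 and 5, the richest in acinar RNA, were highest. The difference was 0.55 (SE 0.17, limma adjusted p = 0.0494). Under the acinar covariate it was -0.27 (SE 0.25), and in 9 of the 10 fits with 1 array fewer, all but the one lacking NZO replicate 2, the call ended (adjusted p in limma up to 0.134). Ehmt2, a histone methyltransferase gene, differed by 0.29 (SE 0.07, limma adjusted p = 0.0219), and its call ended without C3H replicate 1 or NZO replicate 5 (up to 0.0660). Srrm4, the neuronal splicing factor that counters Rest, was lowest of the list (-0.30, SE 0.10) and did not pass. The count was 0 without C3H replicate 1 or NZO replicate 5, 0 without NZO replicates 4 and 5, and 1 without any other array but NZO replicate 2. Nefm, Gap43 and Stmn2 differed within NZO by 0.08, -0.13 and -0.05 between replicates 4 and 5 and the other 3. Whether Rest had a part in the values of these genes was not tested.

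Keratins of epithelia were the intermediate filament genes outside the group that passed. Of 14 measured, 3 were higher and none lower, 21.4% against 10.1% of all genes, with a median of 0.10. The 3 were the keratin genes Krt19 (1.55, SE 0.24, limma adjusted p = 0.000801), Krt18 (0.72, SE 0.12, 0.00141) and Krt20 (1.22, SE 0.30, 0.0175). They were 1.08 (SE 0.14), 0.54 (SE 0.11) and 0.60 (SE 0.12) without NZO replicates 4 and 5, all past the threshold. Their values with the acinar score as a covariate were 0.04, 0.09 and -0.63, and the duct marker mean was 8.29 to 8.46 in C3H and 8.57 to 9.51 in NZO, highest on NZO replicates 4 and 5. Krt19 and Krt7 are among the 6 duct genes, so this mean is not independent of Krt19. Of the 6, 2 passed as higher (Krt19 and Muc1), against 5.47% of all genes, and 4 did not pass, Krt7 (0.02) and Epcam (-0.02) among them. Krt8 (0.56, SE 0.20) did not pass. Vim, the filament of mesenchymal cells, was 11.18 to 11.55 in C3H and 10.54 to 11.66 in NZO (-0.19, SE 0.17), and Nes, that of precursor cells, differed by 0.11 (SE 0.17). Gfap, the glial filament, had the lowest difference (-0.24, SE 0.10) and did not pass. No filament gene outside the group was lower in NZO at the threshold, where 4.61% of all genes were.

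**Figure D5:**
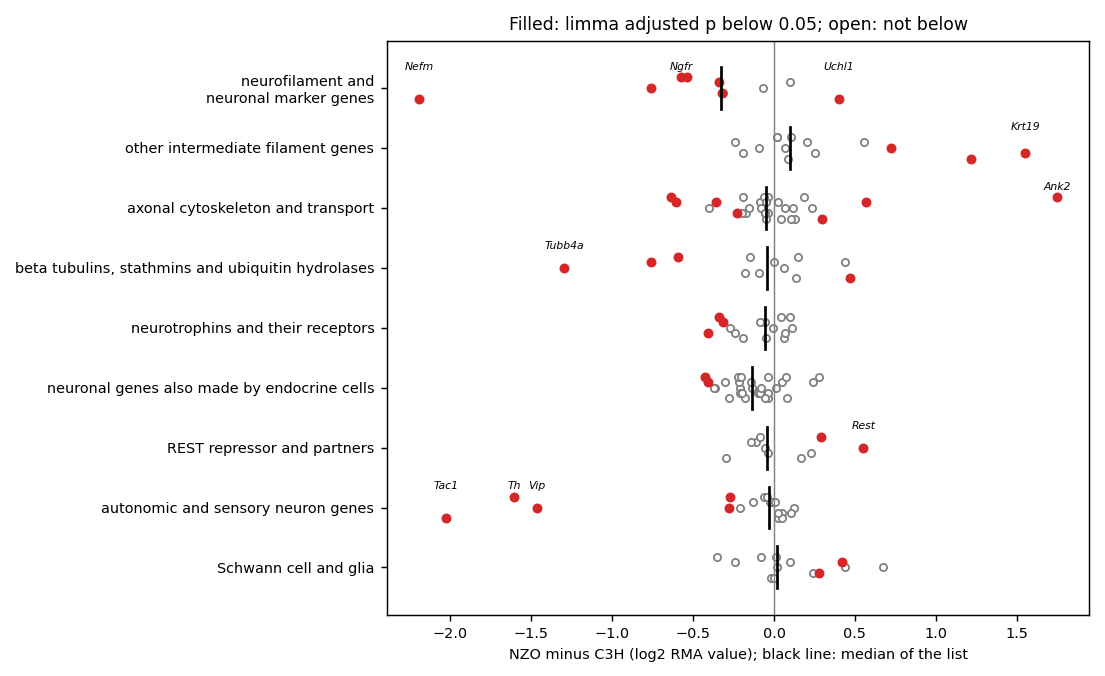
NZO minus C3H differences on the log2 scale of the 10 genes and of 8 lists of related genes, each point a gene, filled where the limma adjusted p was below 0.05, with a black line at the median. Nefm (-2.19), Tac1 (-2.03), Th (-1.61), Vip (-1.46) and Tubb4a (-1.30) lie far to the left and Ank2 (1.75) and Krt19 (1.55) far to the right, while the medians of the 8 lists lie between -0.14 and 0.10.

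Among endocrine markers, 2 list means were lower on all NZO arrays. The delta and PP cell mean was 10.19 ± 0.10 (SD, n = 5) for C3H and 9.56 ± 0.08 (SD, n = 5) for NZO. The alpha cell mean was 10.80 to 10.94 in C3H and 10.57 to 10.76 in NZO. The beta cell mean overlapped, at 11.18 to 11.37 and 10.37 to 11.31. At a limma adjusted p below 0.05, 6 of 8 delta and PP, 1 of 4 alpha and 3 of 9 beta cell genes were lower (4.61% of all genes), and none was higher. Without NZO replicates 4 and 5 these counts were 5, 0 and 3 (2.47%), and under the acinar covariate 1, 0 and 0 (0.461%). The macrophage mean was 7.64 to 7.85 in C3H and 7.77 to 9.06 in NZO, the endothelial mean 9.41 to 9.73 and 9.49 to 9.89, and the stellate cell and fibroblast mean 8.00 to 8.30 and 7.89 to 9.18. The part of these cell types in the differences of the 10 genes was not tested.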

How the data were processed

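RNA (150 ng per array) was measured on a whole-transcript Affymetrix array. The deposited values are log2 expression values that the authors obtained by RMA (Expression Console of Affymetrix, as the submitters' processing notes name it); this method corrects background, quantile-normalizes and makes no detection call. Software version and build: not given in the sources used here. Of 35556 probe sets, 21789 carried 1 symbol and 1621 several, and 12146 are unnamed here; the brightest per gene left 19938 genes, unfiltered.

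Strain differences (NZO minus C3H) were fitted with limma 3.58.1 (R 4.3.3), two-sided, Benjamini-Hochberg adjusted over all genes, threshold 0.05, tested on simulated data. Strain came from the labels, which give no batch; 5 arrays per strain limit the precision, and p-values measure only the spread between these samples. Members and lists were chosen with earlier results of these data known. The naming rule took all members; per neural list up to 4 genes past the threshold with the smallest p and both extremes; the 6 nearest profiles; chromosomal neighbours; Rest and islet hormones. Other marker lists are given as means. There were 18 alternatives: 2 brightness filters, averaged probe sets, centring, the acinar covariate, eBayes with trend, array weights and arrays left out.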

Additional observations from a re-analysis of the deposited data

Results flagged for a closer look

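In a group of 5 arrays, a value was taken as standing apart when its gap to the nearest array exceeded 0.71 of the group's range (Dixon's 95% limit); 7 of 110 groups did so, where chance flags about 1 in 20. Nefm on C3H replicate 4 was 7.94 against 8.71 to 8.89 on the other C3H arrays, and Ntrk2 on the same array was 9.14 against 9.35 to 9.43. Tubb2b was 8.18 on C3H replicate 1 against 8.52 to 8.64, and 7.91 on NZO replicate 5 against 7.70 to 7.75. Srrm4 was 7.49 on C3H replicate 3 against 7.06 to 7.16. The beta cell marker mean was 11.18 on C3H replicate 2 against 11.33 to 11.37, and the endothelial mean 9.49 on NZO replicate 2 against 9.78 to 9.89.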

How the results depend on the processing

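Nefm kept its direction under all 18 alternatives (-2.39 to -2.12), as did Ina, Stmn2, Ngfr and Uchl1; Nefl, Prph, Gap43 and Tubb3, dimmer than the median gene, kept theirs under the 17 that include them, and Nefh in 17 of 18. With the acinar covariate, 205 genes passed in place of 2010, 4 in the 8 lists in place of 28, and Nefl was -0.17, Nefh 0.18, Ngfr -0.81 and Tubb3 -0.046, while Krt20 (-0.63), Marcksl1 (-0.17) and Rest (-0.27) turned negative without passing. Because the acinar score is separated by strain, this fall in calls does not separate acinar RNA from strain. With array weights 4125 genes passed, and 48 in the lists. Without NZO replicates 4 and 5, 1105 passed. With 1 array left out, 1441 to 2701 genes passed, and 18 to 33 in the lists, fewest without C3H replicate 1. The causes were not tested. No paired analysis was possible because the titles share no number between strains. Dim values limit what can be said of Nefl and of Nefm in NZO.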
